A study of Rattus norvegicus with 46 samples.

Results

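Liver and quadriceps muscle of obese rats given vehicle were compared gene by gene. The libraries were chosen by their labels alone, as every vehicle library of either tissue, and they were 15 of the 46 bulk RNA libraries of the series, 8 from liver and 7 from quadriceps. All were from Rattus norvegicus of wild-type genotype. The text of the series describes DIO rats, the usual abbreviation for diet-induced obese, and 20 days of treatment, but mentions liver alone, so the model of the quadriceps samples is taken from the series as a whole. No other allele or agent, and no diet, sex or age, is given for these groups. Rats whose food was restricted to match weight, and rats given CagriSema, a combination of an amylin analogue and a GLP-1 receptor agonist, made up the other libraries, which enter only in a closing comparison. The labels do not say that libraries of 1 tissue came from separate rats, or that a liver and a quadriceps library of the same number shared a rat, so p-values measure only the spread between these libraries.

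Liver and skeletal muscle meet in the handling of fuel. Hepatocytes make most plasma proteins, store and release glucose, make urea, bile acids and ketone bodies, and detoxify drugs. Muscle fibres take up glucose and fatty acids to drive contraction, store glycogen for their own use, and burn the ketone bodies that liver exports. Many steps of metabolism are run by separate genes in the 2 tissues: the enzymes catalyse the same reaction, but differ in affinity for substrate, in allosteric control or in the hormones they answer to.

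Gene counts per library were 9987638 to 15929822 in liver and 11462369 to 16525274 in quadriceps. Levels are given as counts per 1000000 (CPM) on library sizes scaled by the TMM method, and the floor of 3 counts used here was worth 0.177 to 0.340 CPM in a liver library and 0.185 to 0.258 CPM in a quadriceps library. Because coding lengths were not used, a level of 1 gene is compared only with the level of the same gene in the other tissue, and genes are set side by side by their share of the counts. The labelled tissues were borne out by their markers: all 10 hepatocyte markers were higher in liver, all 8 measured muscle fibre markers were lower there, and in no case did the libraries of the tissues overlap. Some libraries stood apart within their tissue. Ribosomal protein genes took 1.87% of the counts in liver library 4, against 0.657 to 0.891% in the other liver libraries, and the mitochondrial genome took 9.29% in liver library 6. Liver library 1 held 1479 counts of the 8 muscle fibre markers, 0.0661% of their summed level in quadriceps, and quadriceps library 2 held 726 counts of the 10 hepatocyte markers, 0.0449% of their summed level in liver. The part of these libraries in the results below was not tested beyond the values given without them.

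Most genes differed between the tissues. Of 13028 genes tested, 10091 (77.5%) were called at an adjusted p under 0.05 by edgeR's quasi-likelihood test, of which 5220 (40.1%) were higher and 4871 (37.4%) lower in liver. A test against a 2-fold difference called 5802 genes (44.5%), of which 3087 (23.7%) were higher and 2715 (20.8%) lower in liver. The libraries of the tissues did not overlap in CPM for 7067 genes (54.2%). The median log2 fold change of liver over quadriceps was 0.07 over all genes tested, and 1606 genes lay beyond a log2 fold change of 5 in either direction. Genes well counted in both tissues also differed: among 5433 genes with a mean of at least 10 CPM in each, 3928 were called and 1463 were called beyond 2-fold. A further 1894 genes reached that mean in liver alone and 1549 in quadriceps alone. In bulk samples, fewer cells of a type and less RNA per cell cannot be told apart, which holds for every gene below. Without liver libraries 4 and 6, 10962 genes were called, and 9877 of the 10091 calls were made again in the same direction.

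Each tissue gave a large part of its counts to a handful of genes. The 10 genes of highest mean level took 21.5 ± 0.96% of the counts in liver (SD, n = 8) and 26.7 ± 1.72% in quadriceps (SD, n = 7). The 100 highest took 46.7 ± 1.48% in liver and 53.7 ± 1.65% in quadriceps, and the 1000 highest 74.8 ± 1.40% in liver and 76.7 ± 1.12% in quadriceps. Without the genes of the mitochondrial genome the 10 highest took 21.3 ± 1.07% in liver and 21.8 ± 3.03% in quadriceps, so that most of the gap between the tissues was in those genes.

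Albumin (Alb), the main protein of plasma, took 7.79 ± 0.58% of the liver counts. Transferrin (Tf), which carries iron, took 3.17 ± 0.19%, and complement C3 took 1.52 ± 0.49%. Apolipoprotein E (Apoe), a ligand for lipoprotein receptors, took 1.49 ± 0.43%. A row that RefSeq names Mug1l1, a murinoglobulin-like gene, took 1.46 ± 0.54%, the vitamin D binding protein Gc 1.10 ± 0.13%, the haemoglobin scavenger Hp 1.0 ± 0.30%, and the protease inhibitor Serpina1 0.84 ± 0.14% (SD, n = 8 for each). One further row without a gene symbol was among the 10, and Mt-co1 of the mitochondrial genome was the other. Liver library 4 was the highest liver library for Apoe, Hp and Ttr and the lowest for C3, with 31672, 21576, 19027 and 6819 CPM.

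Quadriceps' counts were led by contractile proteins, the mitochondrial genome and creatine kinase. Myh4, the myosin heavy chain of the fastest (type IIB) fibres, took 7.26 ± 1.53% of the counts. Skeletal actin (Acta1) took 3.07 ± 0.43%, the muscle creatine kinase Ckm 1.86 ± 0.30% and the fast troponin T gene Tnnt3 1.22 ± 0.20% (SD, n = 7 for each). The other 6 of the 10 were transcripts of the mitochondrial genome, led by Mt-co1, a catalytic subunit of cytochrome c oxidase, at 5.61 ± 1.27%, against 2.21 ± 0.68% in liver. Alb, Tf, Apoe, C3, Gc, Hp and Serpina1 did not overlap between the tissues, nor did Myh4, Acta1, Ckm and Tnnt3. Mt-co1 did overlap: liver library 6 held 42105 CPM and quadriceps library 2 held 41183 CPM.

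**Figure D1:**
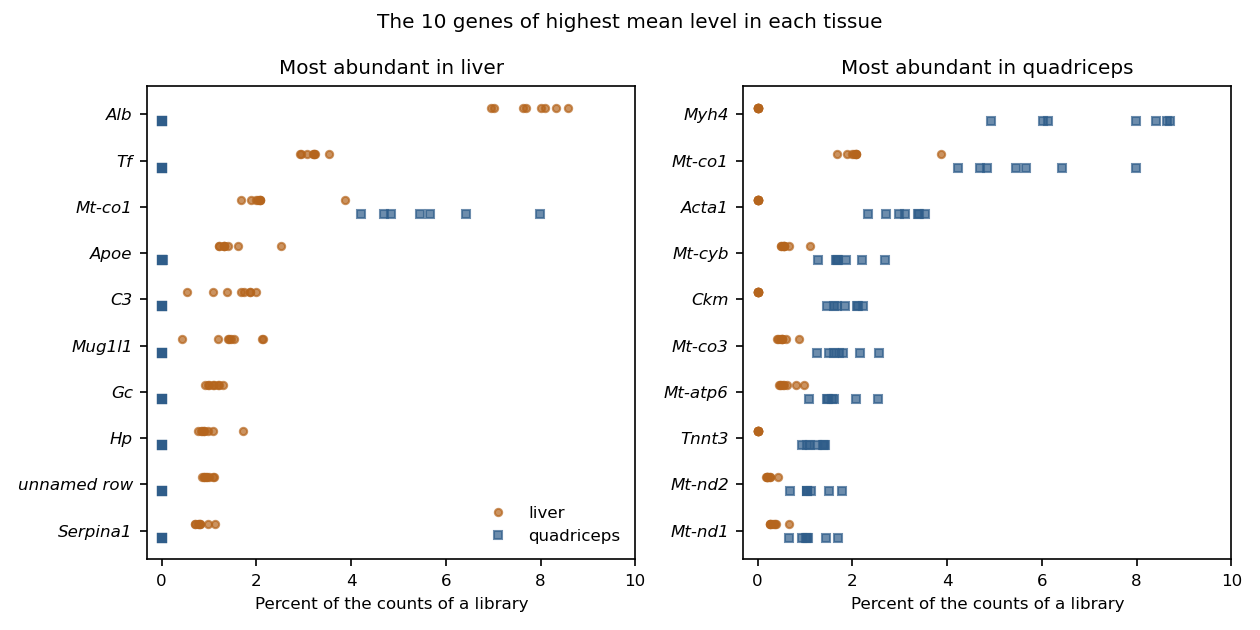
Percent of a library's counts taken by each of the 10 genes of highest mean level in liver (left) and in quadriceps (right), with 1 point per library, liver circles (n = 8) above quadriceps squares (n = 7). Alb took 7.79% of the counts on average in liver and Myh4 7.26% in quadriceps, and Mt-co1 is the only gene on both lists.

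Genes that 1 tissue held and the other nearly lacked were counted by a rule of level, with no test. A gene was called restricted to a tissue when its mean there was at least 10 CPM and no library of the other tissue held more than 3 counts. Of 7327 genes at that mean in liver, 233 (3.18%) were restricted to liver, and 70 of them had 0 counts in every quadriceps library. Of 6982 genes at that mean in quadriceps, 169 (2.42%) were restricted to quadriceps, and 35 of them had 0 counts in every liver library. The restricted genes took 3.12 ± 0.13% of the liver counts and 1.53 ± 0.31% of the quadriceps counts (SD). A second rule asked for a mean of at least 10 CPM and at least 100 times the mean of the other tissue, taken as no lower than the floor. It held 475 genes in liver, which took 49.2 ± 1.38% of its counts, and 311 genes in quadriceps, which took 37 ± 3.95%. Both rules held for 182 genes in liver and 117 in quadriceps.

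The liver-restricted row of highest mean level, at 1056 CPM, has no gene symbol. Next came Gjb1, the gap junction protein connexin 32, which couples hepatocytes, with 681 to 1062 CPM (median 772) in liver and 0 to 0.207 CPM (median 0.0841) in quadriceps. The clotting regulators Serpind1 (heparin cofactor II), Proc (protein C) and Cpb2 followed with liver means of 699, 674 and 500.4 CPM. Apoc2, which activates lipoprotein lipase, had a mean of 601 CPM. Cyp2c22, a cytochrome P450, had a mean of 632 CPM, Hao1, which oxidises glycolate in peroxisomes, 607 CPM, the secreted phosphoprotein Spp2 558 CPM, and Uroc1, of histidine breakdown, 549 CPM. The 10 leading genes with a symbol had at most 3 counts in each quadriceps library, as the rule required. Just inside the limit of 3 counts lay 30 genes with a symbol, led by Gjb1 and Serpind1, and 28 lay just outside it at 4 counts, led by Itih1 and Akr1d1 with liver means of 1478 and 1144 CPM.

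The 10 quadriceps-restricted genes of highest mean level all have a gene symbol. Xirp1, an actin-binding protein of the sites where fibres anchor and repair, had 0 to 0.125 CPM (median 0.0294) in liver and 135 to 3295 CPM (median 285) in quadriceps. Klhl40, which stabilises thin filament proteins, had 0 to 0.139 CPM (median 0) in liver and 182 to 2366 CPM (median 224) in quadriceps. Quadriceps library 2 alone set the upper end of both: without it, Xirp1 did not exceed 404 CPM and Klhl40 did not exceed 348 CPM. The same library was also the highest for Csrp3, a Z-disc protein of stretch sensing, at 2284 CPM against at most 380.4 CPM in the other 6. Scn4a, the sodium channel of the muscle action potential, had a quadriceps mean of 537 CPM, and Trim54, a ubiquitin ligase family protein of the sarcomere, 505 CPM. Txlnb, Synpo2l, Gpc1, Cavin4 and Art1 completed the 10 with means of 484, 397, 316, 311 and 283 CPM. Cavin4, a coat protein of the muscle caveola, had 0 counts in every liver library and was at least 1349-fold higher in quadriceps by the 3-count floor per library. Just inside the limit lay 32 genes with a symbol, led by Scn4a and Trim54, and 21 lay just outside it, led by Hspb7 and Sypl2 with quadriceps means of 1011 and 444 CPM.

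Several of the most abundant genes of each tissue were counted in the other, mostly in 1 library, and so were not restricted by this rule. Alb had 430 counts in quadriceps library 2 and at most 20 in any other quadriceps library. Myh4 had 505 counts in liver library 1 and at most 6 in any other liver library. In quadriceps library 2 all 10 hepatocyte markers were counted, each at 0.0391 to 0.152% of its own liver mean, with a median of 0.0585%. In liver library 1 all 8 muscle fibre markers were counted, with a median of 0.0658% of their quadriceps means. In the other libraries the medians were at most 0.00820% for muscle markers in liver and 0.00156% for hepatocyte markers in quadriceps. Without quadriceps library 2, 337 genes were restricted to liver instead of 233. Without liver library 1, 211 were restricted to quadriceps instead of 169. The rule of 100-fold depended less on these libraries and held 475 liver and 311 quadriceps genes. Among rows with a gene symbol, those of liver were led by Alb, Tf, Apoe, C3, Gc, Hp, Serpina1, Pzp, Ttr and Ambp, and those of quadriceps by Myh4, Acta1, Ckm, Tnnt3, Aldoa, Tnnc2, Pygm, Neb, Tpm2 and Xirp2.

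**Figure D2:**
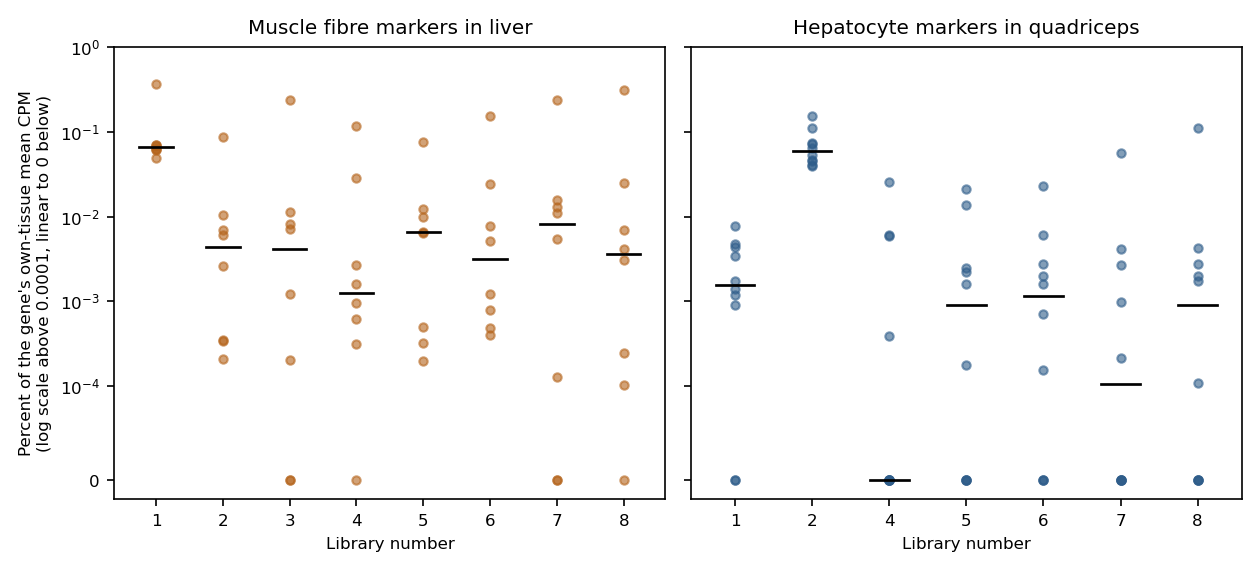
Level of each marker gene of the other tissue in a library, as percent of the gene's mean CPM in its own tissue (log scale, linear below 0.0001), for 8 muscle fibre markers in the liver libraries (left) and 10 hepatocyte markers in the quadriceps libraries (right). Black bars are medians over the markers; liver library 1 stands at 0.0658% and quadriceps library 2 at 0.0585%, and the marker that stays high in every liver library is Ryr1.

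Promoters of 5 genes at the ends of the scale are shown here because short motifs of known factors occurred in them, at rates described next. Sequences are from RefSeq on build GRCr8 and run from 250 bases before to 50 bases after the annotated start of the gene, on the gene's strand. Of the genes tested, 129 of 230 restricted to liver, 104 of 168 restricted to quadriceps and 8894 of all 13028 had an entry. Capitals mark the matches, on either strand, of TATAAA (the TATA box), CAGCTG (an E-box bound by myogenic factors such as MyoD), CAAAGTCCA (bound by HNF4A), TTGCNNAA (bound by C/EBP factors), MEF2 sites and the CArG box bound by SRF, and matches may overlap.
Alb, chr14:17906930-17907229, minus strand: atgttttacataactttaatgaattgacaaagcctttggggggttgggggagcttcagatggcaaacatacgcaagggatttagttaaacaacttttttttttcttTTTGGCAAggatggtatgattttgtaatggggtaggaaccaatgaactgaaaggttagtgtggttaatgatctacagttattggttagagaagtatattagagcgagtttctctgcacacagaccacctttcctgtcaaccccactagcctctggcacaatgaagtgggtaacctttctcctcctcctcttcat
Cps1, chr9:76063613-76063912, plus strand: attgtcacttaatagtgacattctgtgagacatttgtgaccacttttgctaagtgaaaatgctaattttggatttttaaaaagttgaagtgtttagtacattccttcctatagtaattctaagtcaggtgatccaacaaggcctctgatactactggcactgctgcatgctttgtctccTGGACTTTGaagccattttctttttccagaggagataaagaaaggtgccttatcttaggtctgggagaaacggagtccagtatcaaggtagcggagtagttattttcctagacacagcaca
Ckm, chr1:88189211-88189510, plus strand: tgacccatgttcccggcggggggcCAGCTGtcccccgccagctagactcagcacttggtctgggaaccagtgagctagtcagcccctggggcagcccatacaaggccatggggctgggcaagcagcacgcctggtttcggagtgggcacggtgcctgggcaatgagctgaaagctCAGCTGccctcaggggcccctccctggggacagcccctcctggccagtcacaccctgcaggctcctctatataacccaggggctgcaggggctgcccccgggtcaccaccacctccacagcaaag
Myh4, chr10:52421898-52422197, plus strand: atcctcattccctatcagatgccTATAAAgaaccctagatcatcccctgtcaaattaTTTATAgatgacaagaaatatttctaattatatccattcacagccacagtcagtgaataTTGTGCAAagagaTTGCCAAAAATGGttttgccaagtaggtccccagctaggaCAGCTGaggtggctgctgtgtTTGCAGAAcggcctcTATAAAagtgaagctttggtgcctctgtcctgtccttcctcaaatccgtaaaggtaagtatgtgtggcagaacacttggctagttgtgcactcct
Klhl40, chr8:130318543-130318842, plus strand: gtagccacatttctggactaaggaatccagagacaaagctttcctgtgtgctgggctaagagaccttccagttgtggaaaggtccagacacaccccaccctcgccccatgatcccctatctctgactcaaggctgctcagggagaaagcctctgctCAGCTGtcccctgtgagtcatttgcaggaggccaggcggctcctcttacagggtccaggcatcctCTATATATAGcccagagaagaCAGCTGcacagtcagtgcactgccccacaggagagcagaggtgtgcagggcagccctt
The Alb window, of the most abundant liver gene, held a C/EBP match 144 bases before the start. The window of Cps1, the entry enzyme of the urea cycle, held the HNF4A letters 71 bases before it, on the opposite strand. The Ckm window held 2 E-boxes. The Myh4 window held 3 TATA box matches, the nearest 45 bases before the start, with 1 E-box, 3 C/EBP matches and 1 CArG box that overlaps a C/EBP match. The Klhl40 window held 2 E-boxes and 1 MEF2 site.

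Over the restricted sets the motifs occurred at different rates, given here as a description with no test. The E-box CAGCTG was in 14.7% of liver-restricted promoters and 30.8% of quadriceps-restricted promoters, against 16.4% of all promoters of genes tested. MEF2 sites were in 0% of liver-restricted and 6.73% of quadriceps-restricted promoters, against 0.360% of all. The HNF4A letters were in 3.10% of liver-restricted and 0% of quadriceps-restricted promoters, against 0.371% of all. The C/EBP letters were in 16.3% of liver-restricted and 7.69% of quadriceps-restricted promoters, against 8.77% of all. The TATA box was in 20.2% of liver-restricted and 16.3% of quadriceps-restricted promoters, against 7.02% of all. Within the 50 bases before the start it was in 6.98% of liver-restricted and 9.62% of quadriceps-restricted promoters, against 2.11% of all, so the order of the tissues turned. The CArG box was in 1.55% of liver-restricted and 0.962% of quadriceps-restricted promoters, against 1.26% of all. The median GC content was 52.0% in liver-restricted and 56.7% in quadriceps-restricted promoters, against 61.0% in all. In the larger sets beyond 100-fold the E-box was in 18.2% of liver and 28.1% of quadriceps promoters, MEF2 sites in 0% and 6.90%, the HNF4A letters in 2.98% and 0.493%, and the C/EBP letters in 17.2% and 10.8%. Liver and quadriceps kept their order for these 4 motifs. Set against all promoters, the E-box in liver, the HNF4A letters in quadriceps and the C/EBP letters in quadriceps lay above the share of all in these sets and below it in the restricted sets.

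The pathway lists below give, for each group of genes, how many of its tested members were called in each direction, to be read against 40.1% of all genes higher and 37.4% lower. Where a gene had 0 counts in a whole tissue, its change is given as a least fold against the 3-count floor per library, and list medians take such genes at that bound. Log2 fold changes with a library left out are as fitted. For at least Foxa1, G6pc1, Klhl40, Ckmt2, Ppp1r3a and Myl1, the library left out held every count of the other tissue. Their values without it rest on 0 counts there and do not measure the size of the difference.

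**Figure D3:**
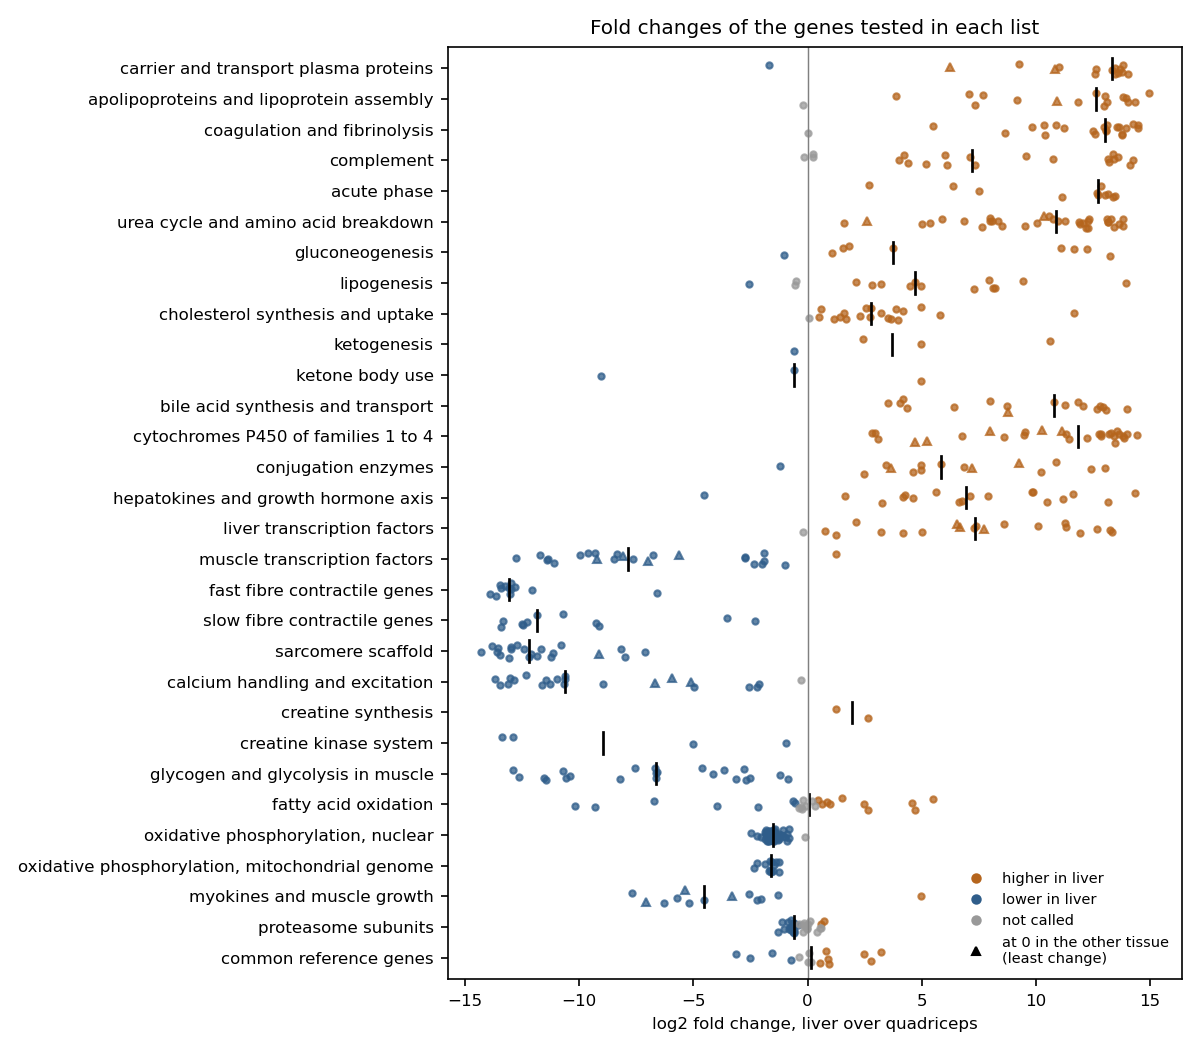
Log2 fold change of liver over quadriceps for each tested gene of the pathway lists, 1 point per gene, with brown for higher in liver, blue for lower in liver and grey for not called, and a black bar at the list median. Triangles stand for genes with 0 counts in every library of the other tissue, drawn at the least change that the 3-count floor allows. List medians run from 13.33 for plasma carriers to −13.07 for fast fibre contractile genes, with fatty acid oxidation at 0.05 (−0.05 without liver libraries 4 and 6).

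Plasma proteins were among the genes that differed most. Of 15 carrier proteins tested, 14 were higher in liver, with a list median log2 fold change of 13.33. Alb had 65099 to 87472 CPM (median 80674) in liver, against 0.0859 to 31.1 CPM (median 0.168) in quadriceps, a log2 fold change of 14.03 ± 0.97 (± the standard error, as for every log2 fold change here) with an edgeR adjusted p of 4.86e-07. Ambp, the precursor of alpha-1-microglobulin, had 5918 to 13029.6 CPM (median 6781) in liver and 0 to 3.33 CPM (median 0) in quadriceps, a log2 fold change of 13.79 ± 0.77. Transthyretin (Ttr), which carries thyroid hormone, had 4169 to 19027 CPM (median 5656) in liver and 0 to 3.54 CPM (median 0) in quadriceps, a log2 fold change of 13.78 ± 0.84. In none of the 3 did the tissues overlap, and the highest quadriceps value of each was in library 2. Orm1, an acute phase carrier of drugs, had 242 to 932 CPM (median 322) in liver and 0 counts in every quadriceps library, so it was at least 1802-fold higher in liver. The exception was Shbg, the carrier of sex steroids, lower in liver with 0.125 to 0.835 CPM (median 0.481) in liver and 0.362 to 1.91 CPM (median 1.37) in quadriceps, a log2 fold change of −1.70 ± 0.42, at a low level in both and with overlapping libraries. The log2 fold changes without quadriceps library 2 of Alb, Ambp and Ttr were 17.65, 16.75 and 17.38. DESeq2 with its default replacement of outlying counts did not call these 3 genes, Apob, Fga, Fgb, Cps1, Acta1, Ckm and Myl1, with adjusted p-values of 0.058 to 0.146, and called all 10 when the counts were used as deposited.

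The proteins of lipoproteins, clotting, complement and the acute phase followed the same pattern. Of 17 apolipoproteins and assembly proteins tested, 16 were higher in liver with a list median of 12.62. Apob, the structural protein of very low density lipoprotein, had 2222 to 5201 CPM (median 4379) in liver and 0 to 1.37 CPM (median 0) in quadriceps, a log2 fold change of 14.33 ± 0.80. Apoc3, which slows triglyceride clearance, had 1434 to 7143 CPM (median 2064) in liver and 0 to 1.01 CPM (median 0) in quadriceps, a log2 fold change of 14.02 ± 0.88. Tf and Apoe were different in that quadriceps held them at moderate levels: Tf had 36 to 67.3 CPM (median 55.6) and Apoe 62.6 to 268 CPM (median 83.4) in quadriceps, against 27239 to 36876 CPM (median 32207) and 11106 to 31672 CPM (median 13118) in liver. Their log2 fold changes were 9.25 ± 0.26 and 7.08 ± 0.37. Pltp, which transfers phospholipids between lipoproteins, was the only apolipoprotein list member not called, with 6.60 to 30.5 CPM (median 24.7) in liver and 17.2 to 43.6 CPM (median 19) in quadriceps. Leaving out quadriceps library 2 put Apob at 18.82 and Apoc3 at 16.97.

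Of 22 clotting and fibrinolysis genes, 21 were higher in liver with a list median of 13.02. The fibrinogen chains Fga and Fgb had 4716 to 7116 CPM (median 5699) and 3729 to 7718 CPM (median 4434) in liver, against 0 to 2.31 CPM (median 0) and 0 to 1.52 CPM (median 0) in quadriceps, log2 fold changes of 13.93 ± 0.74 and 14.25 ± 0.75. Factor XII (F12), which starts contact activation, had 947 to 1703 CPM (median 1069) in liver and 0 to 0.289 CPM (median 0) in quadriceps, a log2 fold change of 14.46 ± 0.85. Tfpi, an inhibitor of clotting that endothelium also makes, was not called, with 8.10 to 14.3 CPM (median 10.9) in liver and 7.59 to 12.4 CPM (median 11.6) in quadriceps. Of 20 complement genes, 17 were higher in liver with a list median of 7.20. C9 and C8a, of the membrane attack complex, had 1385 to 1754 CPM (median 1572) and 467 to 1267 CPM (median 1107) in liver and 0 to 0.506 CPM (median 0) and 0 to 0.362 CPM (median 0) in quadriceps, log2 fold changes of 14.26 ± 0.77 and 14.10 ± 0.88. C4b, Cfd and Masp1 were not called: Masp1, a protease of the lectin pathway, had 14.9 to 153 CPM (median 124) in liver and 97.9 to 159 CPM (median 116) in quadriceps, with its lowest liver value in library 4. All 11 acute phase genes tested were higher in liver with a list median of 12.73. Serpina1 had 6479.6 to 14139 CPM (median 7993) in liver and 0 to 4.56 CPM (median 0.140) in quadriceps, a log2 fold change of 13.44 ± 0.71. Hepcidin (Hamp), which limits iron export, had 68.4 to 442 CPM (median 126) in liver and 0 to 0.0723 CPM (median 0) in quadriceps, a log2 fold change of 13.13 ± 2.62. With quadriceps library 2 left out, the log2 fold changes of Fga, Fgb, F12, C9, C8a, Serpina1 and Hamp were 16.97, 17.14, 16.92, 17.40, 16.82, 15.80 and 14.22.

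Nitrogen and amino acid metabolism was higher in liver throughout. All 34 genes of the urea cycle and amino acid breakdown were called higher in liver, with a list median of 10.86. With liver libraries 4 and 6 left out, 33 were called higher. Cps1, which makes carbamoyl phosphate in the first step of the urea cycle, had 3634 to 6641 CPM (median 4778) in liver and 0 to 2.24 CPM (median 0) in quadriceps, a log2 fold change of 13.81 ± 0.76 SE with an edgeR adjusted p of 3.79e-10. Otc, the next enzyme, had 334 to 498 CPM (median 429) in liver and 0 to 0.145 CPM (median 0) in quadriceps, a log2 fold change of 13.81 ± 0.85. Hal, which starts histidine breakdown, had 174 to 398 CPM (median 304) in liver and 0 counts in every quadriceps library, at least 1308-fold higher in liver. The smallest difference of the list was in Oat, ornithine aminotransferase, with 180.4 to 507 CPM (median 282) in liver and 84.4 to 119 CPM (median 102) in quadriceps, a log2 fold change of 1.61 ± 0.19. The tissues did not overlap in any of these 4 genes. With quadriceps library 2 left out, Cps1 stood at 17.21 and Otc at 15.51.

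Of 9 genes of glucose production, 8 were higher in liver. The glucose-6-phosphatase G6pc1, which frees glucose for export, had 156 to 567.6 CPM (median 282) in liver and 0 to 0.434 CPM (median 0) in quadriceps, a log2 fold change of 12.22 ± 1.02. Pck1, which commits oxaloacetate to glucose, had 2511 to 5006 CPM (median 3563) in liver and 0.345 to 2.68 CPM (median 0.995) in quadriceps, a log2 fold change of 11.65 ± 0.32. In quadriceps G6pc1 was at 0 in 6 of 7 libraries and Pck1 was counted in all 7. Got1, an aspartate aminotransferase that also serves the malate-aspartate shuttle, was lower in liver, with 139 to 603 CPM (median 272) against 298 to 975 CPM (median 559) in quadriceps, a log2 fold change of −1.04 ± 0.29, and its libraries overlapped. Without quadriceps library 2, G6pc1 stood at a log2 fold change of 15.17, with no quadriceps count left.

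Fat and sterol synthesis were higher in liver, with more spread between liver libraries. Of 15 lipogenesis genes tested, 12 were higher in liver with a list median of 4.71. The desaturase Scd, which makes oleate, had 617 to 6669.6 CPM (median 1867) in liver and 0.773 to 10.5 CPM (median 2.71) in quadriceps, a log2 fold change of 9.43 ± 0.52. Thrsp, a lipogenic regulator of liver and fat, had 605 to 3079.7 CPM (median 985) in liver and 1.63 to 7.38 CPM (median 4.37) in quadriceps, a log2 fold change of 8.20 ± 0.40. Fads2, a desaturase of polyunsaturated fatty acids, had 504 to 1789.9 CPM (median 1164) in liver and 2.35 to 6.94 CPM (median 4.23) in quadriceps, a log2 fold change of 8.10 ± 0.29. Liver library 6 held the most Scd, Fasn and Pnpla3 of the liver libraries, with 6669.6, 812 and 1275 CPM. Fasn, the fatty acid synthase, had 57.6 to 812 CPM (median 222) in liver and 4.63 to 18.9 CPM (median 7.56) in quadriceps, which did not overlap even at that spread. The malic enzyme Me1, a source of NADPH, was lower in liver, with 12.2 to 126 CPM (median 32.4) against 194 to 349 CPM (median 263) in quadriceps, a log2 fold change of −2.57 ± 0.38. Gpam and Acss2 were not called. With liver libraries 4 and 6 left out, 12 lipogenesis genes were higher and 2 lower in liver.

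Of 20 genes of cholesterol synthesis and uptake, 19 were higher in liver and Mvd was not called, with a list median of 2.76. With liver libraries 4 and 6 left out, 19 were higher and Mvd was called lower in liver. Dhcr7, of the last step of cholesterol synthesis, had 22.2 to 128 CPM (median 67) in liver and 0.483 to 2.32 CPM (median 1.05) in quadriceps, a log2 fold change of 5.81 ± 0.37. Nsdhl, of the same pathway, had a log2 fold change of 4.97 ± 0.14.

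Bile acid and drug metabolism was higher in liver for nearly every gene listed. All 17 bile acid genes tested were higher in liver, with a list median of 10.77. Cyp7a1, which sets the rate at which cholesterol becomes bile acid, had 44.1 to 293 CPM (median 64.8) in liver and 0 counts in every quadriceps library, at least 437-fold higher in liver. Its highest value, in liver library 7, was well above the next liver value of 103 CPM. Akr1d1, the steroid 5-beta-reductase, had 952 to 1465 CPM (median 1105) in liver and 0 to 0.289 CPM (median 0) in quadriceps, a log2 fold change of 13.99 ± 0.63. Slco1b2 and Baat, an uptake carrier and the enzyme that conjugates bile acids, had log2 fold changes of 13.06 ± 0.77 and 12.92 ± 0.52. All 28 cytochrome P450 genes of families 1 to 4 that were tested were higher in liver, with a list median of 11.83. Cyp2b3 had 287 to 582 CPM (median 504) and Cyp3a18 64.5 to 433 CPM (median 273) in liver, with 0 counts of either in every quadriceps library, at least 2223-fold and 1214-fold higher in liver. Cyp4a2, a fatty acid hydroxylase, ranged widely between liver libraries, with 40.2 to 895 CPM (median 435) and its lowest value in library 2, against 0 to 0.0690 CPM (median 0) in quadriceps. Of 15 conjugation enzymes tested, 14 were higher in liver, with a list median of 5.83. Sult1b1, a sulfotransferase, was at least 619-fold higher in liver, and Ugt2b35, a glucuronosyltransferase, had a log2 fold change of 13.02 ± 0.78. The glutathione transferase Gstp1 was lower in liver, with 10.1 to 37.8 CPM (median 11.3) against 28.4 to 41.7 CPM (median 31.9) in quadriceps, a log2 fold change of −1.22 ± 0.25. P450, Ugt, Sult and Gst genes have close copies, and how reads shared between copies were counted is not given in the sources used here, so the split between members is uncertain. Without quadriceps library 2 the log2 fold changes of Akr1d1, Slco1b2, Baat and Ugt2b35 were 15.09, 16.01, 13.82 and 15.97.

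Of 18 secreted regulators and growth hormone axis genes, 17 were higher in liver. Inhbe, a subunit of activin E, had 101 to 232 CPM (median 166) in liver and 0 to 0.145 CPM (median 0) in quadriceps, a log2 fold change of 11.63 ± 0.80. Igf1, the growth factor that mediates growth hormone, had 593 to 1879 CPM (median 716) in liver and 6.19 to 9.34 CPM (median 8.56) in quadriceps, a log2 fold change of 6.76 ± 0.24. Follistatin (Fst), an inhibitor of activins and myostatin, was lower in liver, with 0 to 0.185 CPM (median 0.0606) against 0.828 to 3.16 CPM (median 1.59) in quadriceps. Inhbe without quadriceps library 2 stood at 12.23.

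Transcription factors also separated the tissues. Of 20 liver factors, 19 were higher in liver with a list median of 7.33. Hnf4a, a nuclear receptor that governs hepatocyte genes, had 509 to 733 CPM (median 554) in liver and 0 to 0.362 CPM (median 0) in quadriceps, a log2 fold change of 13.22 ± 0.78 SE with an edgeR adjusted p of 4.59e-14. Creb3l3, a membrane-bound factor of the fasting response, had 302 to 487 CPM (median 404) in liver and 0 to 0.123 CPM (median 0) in quadriceps, a log2 fold change of 13.31 ± 0.71. Onecut1 (HNF6) had 39.9 to 241 CPM (median 122) in liver and 0 to 0.0615 CPM (median 0) in quadriceps. Foxa2 and Onecut2 had 0 counts in every quadriceps library and were at least 209.7-fold and 92.7-fold higher in liver. Foxa1, Nr1h4 (the bile acid receptor FXR), Nr1i2 (the drug sensor PXR) and Nr5a2 were also near 0 in quadriceps, with log2 fold changes of 11.33, 11.28, 11.94 and 8.58. Not all members were that sharply split. Cebpa, Prox1, Foxa3, Nr0b2 and Nr1h3 had log2 fold changes of 7.28, 5.0, 7.37, 4.16 and 3.20. Cebpb, Nr1i3 and Ppara overlapped between the tissues: Ppara, the receptor that drives fatty acid oxidation, had 3.06 to 82.8 CPM (median 68.1) in liver and 7.16 to 21.7 CPM (median 13) in quadriceps, with library 4 the only liver library below the quadriceps range. Tbx3 was the only liver factor not called, with 1.47 to 7.42 CPM (median 4.40) in liver and 2.55 to 10.3 CPM (median 4.49) in quadriceps. Leaving out quadriceps library 2 gave log2 fold changes of 15.94, 12.41 and 13.46 for Hnf4a, Foxa1 and Nr1i2, with no quadriceps count of Foxa1 left. Leaving out quadriceps library 6 gave 14.19 for Creb3l3.

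Of 24 muscle factors and co-regulators tested, 23 were lower in liver with a list median of −7.87. Myod1, the master factor of myogenesis, had 0 to 0.0695 CPM (median 0) in liver and 21.8 to 118 CPM (median 44.2) in quadriceps, a log2 fold change of −11.42 ± 2.03. Tbx15, Lbx1, Myog and Pitx3 had 0 counts in every liver library and were at least 593-fold, 273-fold, 126-fold and 49-fold higher in quadriceps. Smyd1, a methyltransferase of the sarcomere, and Mef2c, a partner of MyoD family factors, had log2 fold changes of −11.73 ± 0.45 and −7.64 ± 0.14. The relatives Mef2a and Mef2d differed less, with log2 fold changes of −1.93 ± 0.23 and −2.76 ± 0.20, as did Srf at −2.02 ± 0.13 and the mitochondrial co-activator Ppargc1a at −2.74 ± 0.22. Esrrg, an oestrogen-related receptor of oxidative tissue, had 13.3 to 26.1 CPM (median 18.2) in liver and 22.8 to 58.5 CPM (median 34.5) in quadriceps and overlapped. Ankrd1, a stretch-responsive co-factor, had 0.365 to 1.25 CPM (median 0.462) in liver and 23 to 2584 CPM (median 111) in quadriceps, where library 2 was highest and the other 6 held at most 258 CPM. Myf6, Myf5, Six4, Eya1, Eya4, Ppard, Nfatc1 and Ankrd2 were also lower in liver. Hlf, a circadian-controlled factor that the list placed with muscle, was higher in liver, with 5.44 to 26.2 CPM (median 20.1) against 5.61 to 10.03 CPM (median 7.81) in quadriceps and a log2 fold change of 1.23 ± 0.25. Without liver library 1 the log2 fold change of Myod1 was −12.42.

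**Figure D4:**
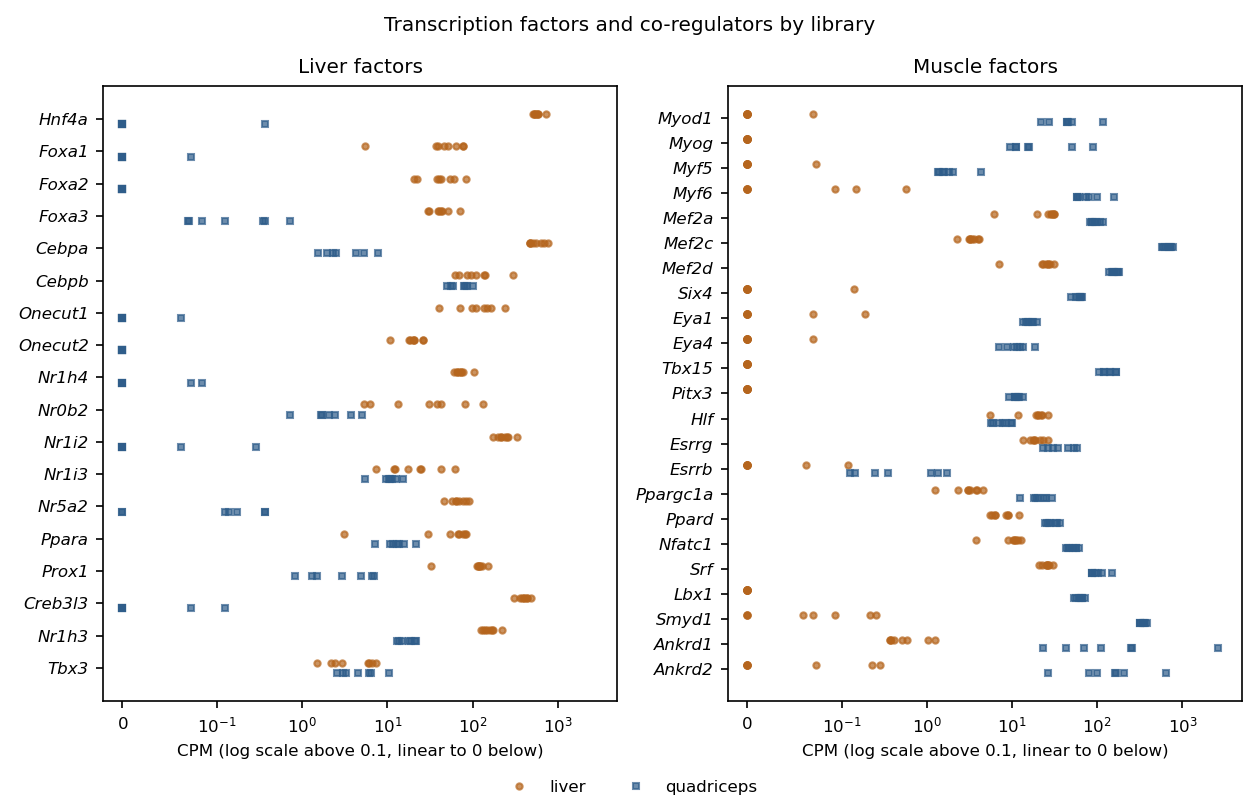
CPM of 18 liver factors (left) and 23 muscle factors or co-regulators (right) in every library, liver circles (n = 8) above quadriceps squares (n = 7), on an axis that is logarithmic above 0.1 CPM and linear to 0 below it. Foxa2 and Onecut2 are at 0 in every quadriceps library and Myog, Tbx15, Pitx3 and Lbx1 at 0 in every liver library, while Cebpb, Tbx3, Hlf and Esrrg overlap.

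The contractile apparatus was lower in liver without exception. All 12 fast fibre genes and all 11 slow fibre genes tested were lower in liver, with list medians of −13.07 and −11.84. Myh4 had 0.0730 to 35.1 CPM (median 0.238) in liver and 50356 to 89329 CPM (median 82092) in quadriceps, a log2 fold change of −13.92 ± 1.07 SE with an edgeR adjusted p of 7.4e-07. Acta1 had 0 to 18.1 CPM (median 0.0606) in liver and 23886 to 35125 CPM (median 30806) in quadriceps, a log2 fold change of −13.64 ± 1.04. Myl1, an alkali light chain of fast myosin, and Mylk2, the skeletal myosin light chain kinase, had log2 fold changes of −13.47 ± 0.87 and −13.42 ± 0.59. The highest liver value of Myh4, Acta1 and Myl1 was in library 1. The fast and slow genes spread differently among the quadriceps libraries. Myh7, the slow (type I) myosin heavy chain, had 0 to 1.81 CPM (median 0) in liver and 306 to 6852 CPM (median 1211) in quadriceps, where libraries 5, 7 and 8 held 3872, 6426 and 6852 CPM and the other 4 at most 1211 CPM. The same 3 libraries were the lowest for Actn3, the alpha-actinin of fast fibres, with 3683, 3888 and 2103 CPM against at least 7212 CPM in the other 4. Myl3, Myoz2 and Mybpc1 had log2 fold changes of −12.51 ± 1.42, −12.45 ± 2.46 and −13.36 ± 0.71. Tpm3 was the only slow fibre gene that overlapped, with 77.7 to 105 CPM (median 82.7) in liver and 67 to 927 CPM (median 176) in quadriceps, a log2 fold change of −2.32 ± 0.46. With liver library 1 left out, the log2 fold changes of Myh4, Acta1, Myl1, Mylk2, Myl3, Myoz2 and Mybpc1 were −18.30, −18.88, −19.25, −14.24, −13.78, −14.05 and −15.60. Myl1 then had no liver count left.

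All 21 sarcomere scaffold genes tested were lower in liver, with a list median of −12.21. Synpo2l, an actin-binding protein of the Z-disc, had 0 to 0.0725 CPM (median 0) in liver and 338 to 487 CPM (median 377) in quadriceps, a log2 fold change of −13.81 ± 0.77. Myoz3, a calcineurin-binding Z-disc protein, had 0 counts in every liver library and was at least 572-fold higher in quadriceps. Xirp1 and Klhl40 had log2 fold changes of −13.60 ± 1.90 and −14.29 ± 2.53, with the wide quadriceps spread given above. Filamin C (Flnc), which crosslinks actin at the Z-disc, had 0.218 to 1.60 CPM (median 0.356) in liver and 1559 to 16148 CPM (median 2059.8) in quadriceps, again with library 2 at the top. Without quadriceps library 2 the log2 fold changes of Xirp1 and Klhl40 were −12.15 and −13.14. Without liver library 1 that of Klhl40 was −15.88, with no liver count left.

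Of 22 genes of calcium handling and excitation, 21 were lower in liver with a list median of −10.64. Cacna1s, the voltage sensor of the transverse tubule, had 0 to 0.904 CPM (median 0) in liver and 1056 to 1769 CPM (median 1535) in quadriceps, a log2 fold change of −13.48 ± 0.79. Triadin (Trdn) and sarcalumenin (Srl), of the sarcoplasmic reticulum, had log2 fold changes of −13.12 ± 0.79 and −13.71 ± 0.71, and Scn4a −13.01 ± 0.58. The acetylcholine receptor subunit Chrnd was at least 103-fold higher in quadriceps, and sarcolipin (Sln), an inhibitor of the calcium pump, at least 62-fold. Ryr1, the calcium release channel, was never at 0 in liver: it had 3.42 to 16.3 CPM (median 8.78) there and 3409 to 5803 CPM (median 4001) in quadriceps, a log2 fold change of −8.98 ± 0.32. Stac3, which couples Cacna1s to Ryr1 in muscle, was the only member not called, with 133 to 310.5 CPM (median 217) in liver and 207 to 320.2 CPM (median 269.9) in quadriceps. Without liver library 1 the log2 fold changes of Cacna1s, Trdn and Srl were −17.30, −16.93 and −15.93, and without liver library 7 that of Scn4a was −13.72.

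Energy buffering and glycogen use were higher in quadriceps. All 4 creatine kinase system genes were lower in liver. Ckm had 0 to 12.9 CPM (median 0.0606) in liver and 14621 to 23068 CPM (median 18067) in quadriceps, a log2 fold change of −13.40 ± 0.97. Its mitochondrial partner Ckmt2 had a log2 fold change of −12.88 ± 0.81, and the creatine importer Slc6a8 −5.0 ± 0.22. Both genes that make creatine were higher in liver: Gamt, of the last step, had 222 to 672 CPM (median 247) in liver and 30.4 to 70.4 CPM (median 51.8) in quadriceps, a log2 fold change of 2.65 ± 0.24. Gatm, of the first step, had a log2 fold change of 1.25 ± 0.23 and overlapping libraries. All 22 genes of muscle glycogen use and glycolysis were lower in liver, with a list median of −6.64. Pygm, the muscle glycogen phosphorylase, had 0.227 to 5.21 CPM (median 0.849) in liver and 5714 to 11578 CPM (median 7853) in quadriceps, a log2 fold change of −12.65 ± 0.47. Ppp1r3a, which brings a phosphatase to glycogen, and the insulin-regulated glucose transporter Slc2a4 (GLUT4) had log2 fold changes of −12.89 ± 0.85 and −11.44 ± 0.48. Some members of the list differed less: Gapdh had a log2 fold change of −3.14 ± 0.24, Pgk1 −2.53 ± 0.21, Gpi −2.71 ± 0.17 and Ldha −0.88 ± 0.21. With liver library 1 left out, Ckm, Ckmt2, Pygm, Ppp1r3a and Slc2a4 stood at log2 fold changes of −18.16, −16.60, −13.46, −15.22 and −12.03. Ckmt2 and Ppp1r3a then had no liver count left.

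Respiratory chain genes were lower in liver by a moderate amount. Of 41 nuclear genes of oxidative phosphorylation, 40 were called lower in liver, with a list median of −1.50 that became −1.86 without liver libraries 4 and 6. The summed level of the list was 5046 to 12393 CPM (median 5507) in liver and 14177 to 24933 CPM (median 18279) in quadriceps, which did not overlap. Ndufs1, the largest subunit of complex I, had 93.8 to 139 CPM (median 126) in liver and 424 to 943 CPM (median 648) in quadriceps, a log2 fold change of −2.50 ± 0.16. Cytochrome c (Cycs), cytochrome c1 (Cyc1) and Uqcrc2 of complex III had log2 fold changes of −2.22 ± 0.23, −2.06 ± 0.19 and −1.89 ± 0.12. Cox6c of complex IV had 54.8 to 336 CPM (median 60.1) in liver and 182 to 272 CPM (median 217) in quadriceps, and its highest liver value, in library 4, alone made the tissues overlap. Ndufa2 was the only member not called, and it was called lower in liver without libraries 4 and 6, when all 41 were. All 13 protein genes of the mitochondrial genome were lower in liver, with a list median of −1.61. Mt-nd6 had 262 to 868 CPM (median 298) in liver and 1287 to 2998 CPM (median 2176) in quadriceps, a log2 fold change of −2.36 ± 0.29, and Mt-nd2 had a log2 fold change of −2.22 ± 0.28.

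Fatty acid oxidation did not side with either tissue. Of 24 genes tested, 10 were higher and 7 lower in liver and 7 were not called, and the list median was 0.05. Without liver libraries 4 and 6, 8 were higher and 7 lower and the median was −0.05. The peroxisomal enzymes Ehhadh and Acaa1a were higher in liver, with log2 fold changes of 4.71 ± 0.24 and 4.59 ± 0.16. Cd36, which takes up fatty acids, was lower in liver, with 2.92 to 13.3 CPM (median 6.05) in liver and 31.3 to 181 CPM (median 95.1) in quadriceps, a log2 fold change of −3.97 ± 0.38. Ucp3, an uncoupling protein homologue of muscle, and Fabp3, a fatty acid carrier, were also lower, with log2 fold changes of −10.18 ± 0.89 and −9.32 ± 0.50. The mitochondrial dehydrogenases Acadm and Acadl were not called, with 629.9 to 1019.8 CPM (median 828) and 327 to 441 CPM (median 372) in liver and 592 to 1722 CPM (median 966) and 234 to 692 CPM (median 403) in quadriceps.

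Of 4 genes listed for ketone synthesis, 3 were higher and 1 lower in liver, and of 3 listed for ketone use, 1 was higher and 2 were lower. Oxct1, which activates acetoacetate for use as fuel, had 0.567 to 2.02 CPM (median 1.23) in liver and 331 to 1081 CPM (median 631) in quadriceps, a log2 fold change of −9.05 ± 0.26. It did not overlap between the tissues. Bdh1, which interconverts the ketone bodies, was higher in liver at 4.98 ± 0.34. Acat1, which serves both directions, was lower at −0.59 ± 0.14 with overlapping libraries.

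Of 13 myokine and muscle growth genes tested, 12 were lower in liver, with a list median of −4.56. Fndc5, the precursor of irisin, had 0.653 to 1.85 CPM (median 1.02) in liver and 150.4 to 391 CPM (median 198) in quadriceps, a log2 fold change of −7.69 ± 0.26. Decorin (Dcn), a matrix proteoglycan, had 1.32 to 3.29 CPM (median 2.37) in liver and 144 to 239.7 CPM (median 176) in quadriceps, and Mss51, a mitochondrial protein of fast muscle, had a log2 fold change of −5.70 ± 0.28. Ostn (musclin) and myostatin (Mstn), the brake on muscle growth, had 0 counts in every liver library and were at least 134-fold and 41.3-fold higher in quadriceps. Nrg4, an ErbB4 ligand, was higher in liver, with 1.45 to 28.2 CPM (median 8.53) against 0.168 to 0.690 CPM (median 0.351) in quadriceps.

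Paired forms of the same enzyme, carrier or subunit were compared within each library, so that library scaling plays no part in them. Of 46 pairs listed, 41 had a row for both forms. The measures were the share of the first form in the counts of both and the log2 ratio of first to second form. Overlap was judged on the log2 ratio. The test was an exact two-sided permutation of that ratio over 6435 relabelings of the libraries, whose smallest possible p is 0.0001554. In 33 pairs the tissues did not overlap, with the ratio higher in liver, in 1 pair they did not overlap the other way, and in 7 they overlapped. Ckmt1 and Ckmt2, among the 33, separated only through the pseudocount and not by share. Of the 41, 34 reached the smallest p and 37 lay under 0.05. In 26 pairs the first form was called higher and the second lower in liver, in 5 both were lower and in 2 both were higher. The pairs were listed as a liver and a muscle form, and ratios of other genes were not compared. Over all genes tested, 77.5% were called and the tissues did not overlap in CPM for 54.2%. These counts therefore do not set the pairs apart from other genes, and the exact p-values were not adjusted for the number of pairs. A share of counts depends on the lengths of the 2 transcripts, but the difference of log2 ratios between tissues does not. Ratios took a pseudocount of 0.5 counts, on which a difference depends where a form was at or near 0.

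Most pairs of glucose and glycogen handling were exchanged almost in full. The transporter Slc2a2 (GLUT2) made up 99.93 to 100% (median 99.99%) of the counts of Slc2a2 and Slc2a4 in liver, against 0 to 0.129% (median 0%) in quadriceps, a difference in log2 ratio of 25.30 ± 0.81 SE at the smallest exact permutation p. Glycogen synthase 2 (Gys2) made up 92.8 to 97.2% (median 95.8%) with Gys1 in liver and 0 to 0.0120% (median 0%) in quadriceps, a difference of 17.68 ± 0.27. The phosphorylase Pygl made up 98.5 to 99.92% (median 99.71%) with Pygm in liver and 0.00827 to 0.0393% (median 0.0157%) in quadriceps, a difference of 20.71 ± 0.50. The glycogen-targeting subunits Ppp1r3b and Ppp1r3a were exchanged likewise, with a difference of 19.53 ± 0.65. The phosphorylase kinase subunits Phkg2 and Phkg1 differed by 8.06 ± 0.63, mostly through Phkg1, at a log2 fold change of −6.65 ± 0.45. Phkg2 had 24.3 to 35.4 CPM (median 28.4) in liver and 14.1 to 19.0 CPM (median 16.2) in quadriceps.

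Pairs of glycolysis and its reversal were compared next. The share of Pfkl with Pfkm, the forms of phosphofructokinase, was 94.4 to 98.1% (median 96.5%) in liver and 0.287 to 0.702% (median 0.356%) in quadriceps. Fructose bisphosphatase 1 (Fbp1) made up 99.97 to 100% (median 99.98%) with Fbp2 in liver and 0.163 to 1.95% (median 0.320%) in quadriceps. Pyruvate kinase Pklr made up 94.5 to 98.7% (median 96.5%) with Pkm in liver and 0 to 0.00246% (median 0%) in quadriceps, a difference of 20.96 ± 0.38. For Pgam1 and Pgam2, and for Eno1 and Eno3, both forms were well counted in quadriceps: Eno1 had 219.9 to 523 CPM (median 276) in liver and 95.7 to 151 CPM (median 133) in quadriceps, and Eno3 2.60 to 5.42 CPM (median 3.32) in liver and 3434 to 6036 CPM (median 4336) in quadriceps. Lactate dehydrogenase went the other way. Ldhb, the form that favours lactate use, made up 0.0387 to 0.306% (median 0.196%) with Ldha in liver and 2.02 to 26.9% (median 6.43%) in quadriceps, a difference of −5.76 ± 0.67, and its highest quadriceps values were in libraries 5, 7 and 8, those with the most Myh7.

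Fat-handling pairs followed. Cpt1a, the gate of mitochondrial fatty acid entry in liver, made up 98.9 to 99.62% (median 99.53%) with the muscle form Cpt1b in liver and 2.80 to 5.88% (median 4.27%) in quadriceps, a difference of 12.14 ± 0.23. The fatty acid binding protein Fabp1 made up 99.90 to 99.99% (median 99.97%) with Fabp3 in liver and 0.0896 to 3.26% (median 0.244%) in quadriceps. Hepatic lipase (Lipc) made up 98.6 to 99.56% (median 99.2%) with lipoprotein lipase (Lpl) in liver and had 0 counts in quadriceps, at least 1952-fold higher in liver. Lpl had 1.82 to 6.71 CPM (median 3.43) in liver and 126 to 636 CPM (median 267) in quadriceps, a log2 fold change of −6.57 ± 0.35. The ligases Acsl5 and Acsl6 were also exchanged, with a difference of 17.32 ± 0.33. The transporters Slc27a5 and Slc27a1 differed by 12.55 ± 0.65, mostly through Slc27a5, at a log2 fold change of 11.85 ± 0.55. Slc27a1 was lower in liver at −0.72 ± 0.22 with overlapping libraries. It had 20.1 to 35.2 CPM (median 30.4) in liver and 27.3 to 79.2 CPM (median 37.1) in quadriceps. The pairs of triglyceride synthesis shifted without an exchange. Dgat2 made up 92.1 to 94.9% (median 93.2%) with Dgat1 in liver and 49.9 to 77.8% (median 70.5%) in quadriceps, and both forms were higher in liver. Lpin2 made up 51.2 to 79% (median 65.9%) with Lpin1 in liver and 4.74 to 10.7% (median 9.30%) in quadriceps, while Lpin1 itself was not called. Acetyl-CoA carboxylase 1 (Acaca) made up 4.48 to 38.5% (median 21.7%) with Acacb in liver and 3.63 to 8.06% (median 5.57%) in quadriceps, and overlapped through liver library 4, where Acaca had 9.52 CPM.

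Among the amino acid, nucleotide and energy pairs some did not overlap between the tissues and others, given further on, did. Mat1a, the methionine adenosyltransferase of adult liver, made up 98.2 to 99% (median 98.8%) with Mat2a in liver and 0 to 1.77% (median 0%) in quadriceps. Ampd2 made up 98.9 to 100% (median 99.85%) with Ampd1, the AMP deaminase of muscle, in liver and 0.786 to 1.82% (median 1.14%) in quadriceps. Slc25a5 made up 97.1 to 98.8% (median 98.2%) with Slc25a4, the heart and muscle ADP/ATP carrier, in liver and 0.550 to 1.23% (median 0.751%) in quadriceps, a difference of 12.68 ± 0.22. Ckb made up 39.1 to 100% (median 99.4%) of the counts with Ckm in liver, the lowest share in library 1, and 0.0541 to 0.151% (median 0.0951%) in quadriceps, although both forms were lower in liver. Ckmt1 had 0 counts in every liver library, and with at most 0.834 CPM of Ckmt2 in any liver library that pair separated only through the pseudocount. Slc16a1, a lactate transporter, made up 96.8 to 99.61% (median 98.8%) with Slc16a3, the lactate exporter of glycolytic fibres, in liver and 19.5 to 48% (median 30.2%) in quadriceps, again with both forms lower in liver.

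Housekeeping machinery also had tissue forms. The translation factor Eef1a1 made up 99.91 to 99.9951% (median 99.98%) with Eef1a2 in liver and 9.93 to 20.3% (median 11.6%) in quadriceps, and the ribosomal protein Rpl3 made up 99.80 to 100% (median 99.95%) with its muscle relative Rpl3l in liver and 8.80 to 30.02% (median 11.9%) in quadriceps. The 2 highest quadriceps shares of Rpl3 were in libraries 2 and 5. Cox6a1 and Cox8a, subunits of cytochrome c oxidase, made up 99.57 to 100% (median 100%) and 99.92 to 100% (median 100%) with Cox6a2 and Cox8b in liver, and 8.09 to 12.3% (median 9.64%) and 8.69 to 12% (median 10.1%) in quadriceps. Prkag1, a gamma subunit of AMP-activated protein kinase, made up 96.9 to 99.78% (median 99%) with Prkag3 in liver and 53 to 91.6% (median 62.1%) in quadriceps, where Prkag3 had 15.9 to 131 CPM (median 88.9).

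The 7 overlapping pairs were Acaca and Acacb, Bcat1 and Bcat2, Gpt and Gpt2, Prkaa1 and Prkaa2, Car2 and Car3, Alas1 and Alas2, and Pdk2 and Pdk4. The alanine aminotransferases Gpt and Gpt2 differed in log2 ratio by −0.28 ± 0.60, with an exact permutation p of 0.653, while both were higher in liver. For the branched-chain aminotransferases the difference was −0.12 ± 0.66 with an exact permutation p of 0.857. Bcat1 was too low to be tested alone, and Bcat2, the mitochondrial form, was lower in liver at a log2 fold change of −2.85 ± 0.19. For the AMP-activated kinase subunits Prkaa1 and Prkaa2 it was 0.84 ± 0.43, with an exact permutation p of 0.0581. Pdk2 and Pdk4, which switch off pyruvate dehydrogenase, overlapped but differed by 2.45 ± 0.45, with an exact permutation p of 0.000466, and Pdk4 was lower in liver at −2.88 ± 0.43. These p-values do not show that the forms are held in the same proportion in both tissues.

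**Figure D5:**
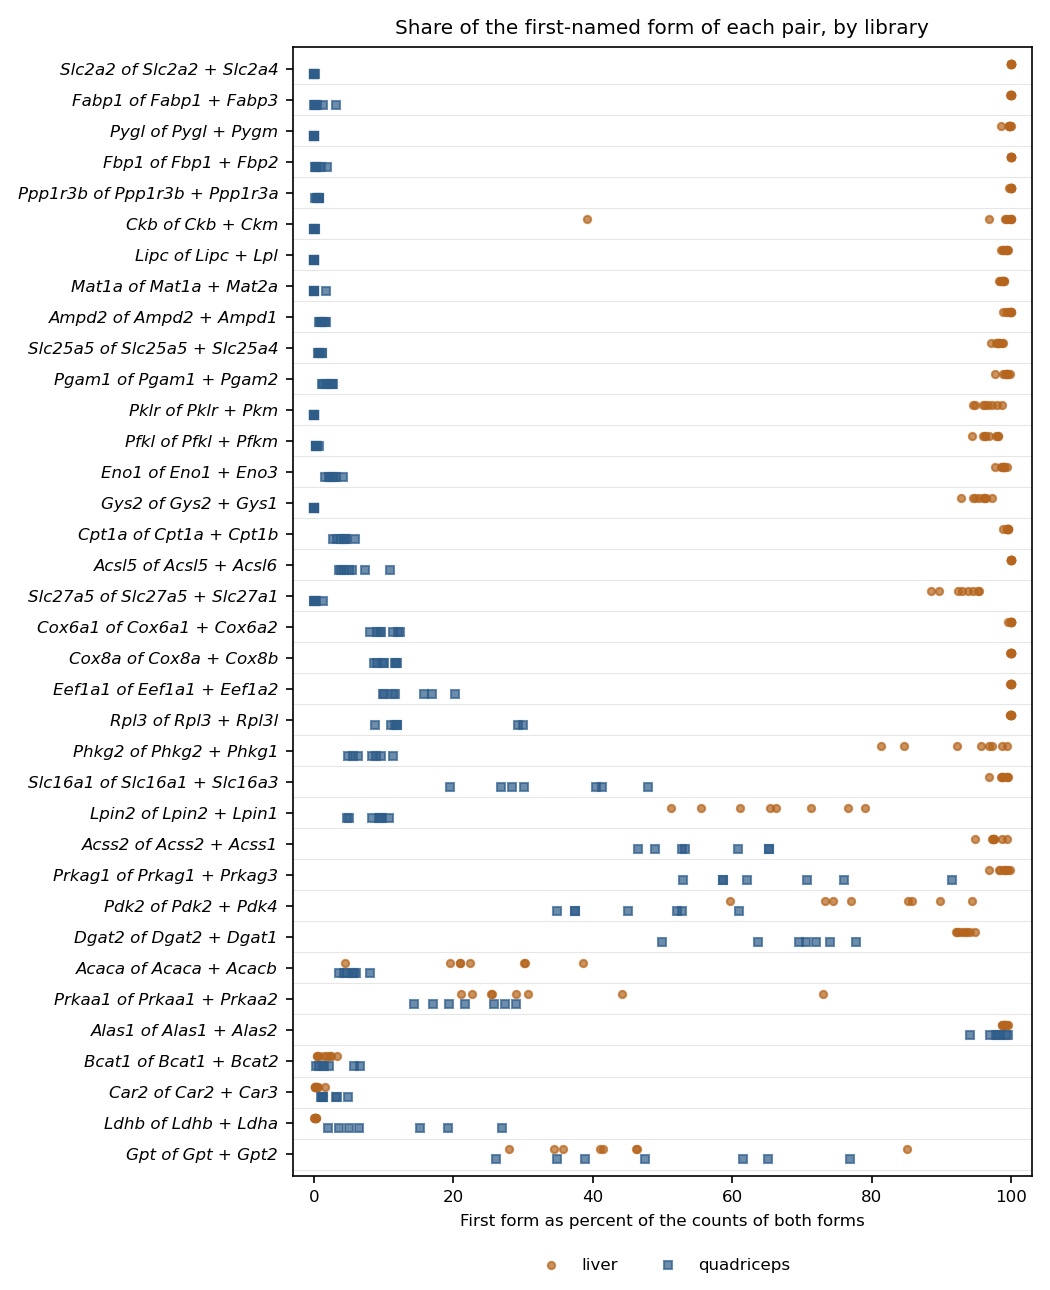
Share of the first-named form in the counts of both forms of each pair, 1 point per library, liver circles (n = 8) above quadriceps squares (n = 7), for 36 of the 41 pairs, ordered by the difference of tissue medians; Ckmt1 and Ckmt2 are left out because most liver libraries held no count of either. The tissues sit at opposite ends in the upper rows, Ckb in liver library 1 lies at 39.1%, and the rows towards the bottom overlap or, for Ldhb and Ldha, run the other way.

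Of 15 genes often used as references for measuring others, 7 were higher and 4 lower in liver, a share called near the 77.5% of all genes tested. Gusb had 31.3 to 47.5 CPM (median 36) in liver and 2.52 to 5.11 CPM (median 4.04) in quadriceps, a log2 fold change of 3.21 ± 0.15, and B2m had a log2 fold change of 2.77 ± 0.18. Gapdh had 317 to 883 CPM (median 442) in liver and 3590.2 to 5589 CPM (median 4530.2) in quadriceps. Tbp, Rplp0 and Rpl13a were among those not called, and Tbp had 6.48 to 9.64 CPM (median 7.88) in liver and 6.31 to 9.47 CPM (median 7.75) in quadriceps. With liver libraries 4 and 6 left out, 7 reference genes were higher and 6 lower in liver. Some of those not called with all libraries were thus called lower. Of 31 proteasome subunits, 2 were higher and 17 lower in liver and 12 were not called, with a list median of −0.58, and without liver libraries 4 and 6, 25 were lower. Psmd12 and Psmc5, of the regulatory particle, had log2 fold changes of −1.32 ± 0.10 and −1.12 ± 0.13.

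Markers of other cell types present in whole tissue were also measured. All 11 Kupffer cell and macrophage genes were higher in liver: Clec4f, a Kupffer cell lectin, had 27.5 to 199.8 CPM (median 128) in liver, lowest in library 6, and 0 to 0.145 CPM (median 0) in quadriceps. Cd68, Cd163, Adgre1, Csf1r, C1qa, C1qb and C1qc overlapped between the tissues. Of 9 endothelial genes, 4 were higher and 4 lower in liver. Stab2 and Clec4g, of liver sinusoids, had log2 fold changes of 6.94 ± 0.51 and 9.28 ± 0.67, and the general endothelial genes Cdh5 and Vwf −1.65 ± 0.20 and −1.79 ± 0.17. Of 7 stellate cell genes, 5 were higher in liver, among them Lrat, which esterifies retinol, at 4.26 ± 0.20. The other 2, Des and Rgs5, were lower, and Des is also a muscle fibre protein. All 5 satellite cell and all 5 smooth muscle genes tested were lower in liver. The satellite cell factor Pax7 had 1.48 to 3.23 CPM (median 1.62) in quadriceps and 0 counts in every liver library. Of 6 fibroblast genes, 5 were lower in liver, with Col1a1 at −6.76 ± 0.30, and Dpt was higher. Of 5 adipocyte genes, 4 were lower in liver and Cidec, which hepatocytes of fatty liver also make, was higher with 47.6 to 67.3 CPM (median 52.3) against 0.772 to 3.08 CPM (median 1.80) in quadriceps. Adipoq had 2.18 to 10.8 CPM (median 5.33) in quadriceps and 0 counts in every liver library. Of 6 Schwann cell genes, 5 were lower in liver. Of 4 bile duct genes, Krt19 and Epcam were higher and Sox9 and Spp1 lower in liver. The summed level of the 6 genes listed spread widely in quadriceps, at 3.95 to 211 CPM (median 12.4). In liver it was 16.9 to 46.1 CPM (median 18.5). The globin genes Hba-a2 and Hbb were not called, with medians of 110.3 and 66.7 CPM in liver and 123.2 and 75.6 CPM in quadriceps. Of 8 lymphocyte genes only Gzma was tested, and it was higher in liver. The part of these cell types in the differences above was not tested.

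The same comparison was made in the rats of the other treatments, whose libraries are separate from those above. In weight-matched rats, 8 liver and 8 quadriceps libraries gave 11263 calls among 12918 genes tested (87.2%), 5727 (44.3%) higher and 5536 (42.9%) lower in liver. Of the vehicle calls, 9555 were made again in the same direction, which is 94.7% of the vehicle calls and 84.8% of those in weight-matched rats, and 4 were made in the opposite direction. In CagriSema rats, 7 liver and 8 quadriceps libraries gave 11586 calls among 13170 genes tested (88%), 5866 (44.5%) higher and 5720 (43.4%) lower in liver. Of the vehicle calls, 9707 were made again in the same direction, which is 96.2% of the vehicle calls and 83.8% of those in CagriSema rats, and 3 in the opposite direction. The isoform pairs separated with the log2 ratio of first to second form higher in liver numbered 36 in weight-matched and 35 in CagriSema rats, against 33 in vehicle rats. Without liver libraries 4 and 6 the vehicle libraries gave 34, 233 liver-restricted genes became 226, and 169 quadriceps-restricted genes became 175.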

How the data were processed

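Total RNA from liver and quadriceps was prepared with the RNeasy Minikit and made into libraries with the Twist UMI system, per the labels. The authors deposited raw read counts per gene in 1 table, and the submitters' processing notes name fastp 0.23.1 and STAR 2.5.2b. The genome build, the annotation, the counting tool, its strand setting, its handling of shared reads and the use of the UMIs are all left unstated in the labels and notes used here. The table holds 32552 genes, and 1 column of counts that matched no labelled sample was not used.

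Groups were taken from the labels. The counts of the 8 liver and 7 quadriceps vehicle libraries were fitted in edgeR 4.0.16 (R 4.3.3, limma 3.58.1) with its standard filter on low counts, TMM scaling, the robust quasi-likelihood test and Benjamini-Hochberg adjustment at 0.05. The test against a 2-fold difference was edgeR's glmTreat. No covariate was used. CPM were computed from the counts and the scaled library sizes. Between 9987638 and 16525274 counts per library set the precision. Isoform pairs were compared by log2 ratios with a pseudocount of 0.5 counts and an exact permutation test over libraries. The edgeR fit was also run on simulated counts built from its own means and spread, with known changes in a small set of genes. These counts were not set to differ in most genes, as the tissues do. Counting intervals are not given, and floors cover counting error only.

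Gene lists, pairs and tests were chosen with earlier results of these data known. Genes named are the 10 most abundant of each tissue, the 10 leading genes of each restricted or 100-fold class, all pair genes, factors and markers, and of each list up to 4 called members of largest change with at least 10 CPM, plus members called against the list's direction. Some genes that this rule names are not reported here. Named after their values were seen are Acaa1a, Acadl, Acadm, C4b, Cd36, Cfd, Chrnd, Cox6c, Ehhadh, Fasn, Flnc, Gpam, Gpi, Igf1, Masp1, Mstn, Mvd, Ndufa2, Oat, Pltp, Pnpla3, Rpl13a, Rplp0, Sln, Stac3, Tbp, Tfpi, Tpm3, and the genes just outside the restricted rule. Alternatives were DESeq2 1.42.0, other scalings, filters, floors and pseudocounts, libraries left out, a replicate block and the rats of the other treatments.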

Additional observations from a re-analysis of the deposited data

Results flagged for a closer look

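Values far from the other libraries of their tissue were looked for in 41 sets of libraries, made of library measures and of genes most of which were chosen after their values had been seen. A value was reported when its gap to the nearest other, divided by the whole range, exceeded 0.526 with 8 libraries or 0.568 with 7. Such a value was found in 16 sets. A rate of about 1 set in 20 holds only for normally distributed values in sets not chosen by their values. These sets were mostly chosen otherwise and their values were not checked for that shape, so the 16 cannot be set against it.

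In liver, library 4 had 1.87% of its counts in ribosomal protein genes, 31672 CPM of Apoe, 21576 CPM of Hp and 19027 CPM of Ttr, each the highest of the 8. Library 6 had 9.29% of its counts from the mitochondrial genome, 42105 CPM of Mt-co1, 812 CPM of Fasn and 6670 CPM of Scd, again each the highest. Library 1 had a summed level of 102.8 CPM of the muscle fibre markers. Library 7 had 293 CPM of Cyp7a1.

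In quadriceps, all 6 such values were in library 2. It had a summed level of 52.5 CPM of the hepatocyte markers, 3295 CPM of Xirp1, 2366 CPM of Klhl40, 2284 CPM of Csrp3, 2584 CPM of Ankrd1 and 16148 CPM of Flnc. What these genes share with the hepatocyte trace in that library was not tested.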

How the results depend on the processing

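The number of genes called lay between 9765 and 10743 when 1 library was left out, at 10962 without liver libraries 4 and 6, at 9849 without liver library 1 and quadriceps library 2 (chosen after seeing the data), and at 11765 of 14110 tested with all 46 libraries in 1 fit. With no filter on low counts 12772 of 21820 genes tested were called, a lower share than the 10091 of 13028 called with the filter. DESeq2 called 12300 genes among the 21820 with any count. It can leave some of these without an adjusted p, and how many was not counted, so no share is given. Genes beyond 2-fold lay between 5620 and 5992 with 1 library left out. Upper quartile scaling moved the median log2 fold change of all genes to −0.09, against 0.07 with TMM, and the share of calls that were higher in liver to 46.49%, against 51.73%. Liver and quadriceps libraries share replicate numbers. Libraries of the same number correlated at 0.013 to 0.203 after removal of the tissue means, above 0.1 for 3 of 7 numbers. Of the 7 libraries, 5 correlated best with their own number. These values do not settle whether the numbers pair the libraries, and the main fit treated the libraries as unpaired. With a replicate block over 14 libraries 9637 genes were called, against 9794 in the same libraries with no block.

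The restricted classes depended most on where the limits lay. A minimum of 1 CPM gave 491 liver-restricted and 474 quadriceps-restricted genes, and a floor of 0 counts gave 70 liver-restricted and 35 quadriceps-restricted genes. Leaving out 1 library gave 227 to 337 liver-restricted and 168 to 211 quadriceps-restricted genes. A limit of 1000-fold in place of 100-fold left 179 liver and 96 quadriceps genes, while leaving out 1 library gave 469 to 479 in liver and 304 to 313 in quadriceps at 100-fold. The 10 most abundant quadriceps genes took 21.8% of counts once the mitochondrial genome was left out.

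Of 110 genes with a printed log2 fold change, 100 kept their direction and call in every alternative run. The other 10 were lost under DESeq2 alone, whose default replaces an outlying count by a value drawn from all libraries of both tissues: Alb then stood at 3.74 and Myl1 at −4.39. With counts as deposited, an alternative added after seeing this, DESeq2 gave 14.04 and −13.58. Without quadriceps library 2, 25 of the 110 moved by over 1.5 times, and without liver library 1, 17 did. Of the pairs, only Bcat1 and Bcat2 turned direction, at 0.59 with a pseudocount of 3, 0.55 in CagriSema rats and 0.18 without liver library 1 and quadriceps library 2, against −0.12. The cause was not tested. Depth limits the fold changes of genes near 0 in 1 tissue, where 1 count decides a large part of the value. A comparison of the proteins of each pair was not run.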
